A study of Mus musculus with 13 samples.

Results

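Among the genes whose promoters PRC2 marks in mouse embryonic stem cells (mESCs) are homeobox transcription factors that lie outside the Hox clusters. The 9 genes described here are Cdx1, Cdx2, Cdx4, Gsx1, Gsx2, Pdx1, Evx1, Evx2 and Mnx1. They were chosen by name, as a family, and make up 9 of the 22367 protein-coding gene records of the GENCODE vM1 annotation on chromosomes 1 to 19, X and Y of the mm9 build. All 9 were found, and Gsx2, which has 2 records, was represented by the record with the more upstream start. ChIP-seq pulls down DNA fragments with an antibody, and stretches where fragments pile up are called as peaks. The data were 5 lists of such peaks from wild-type mESCs of the 129/1 strain, labelled as an XY line: AEBP2 (an accessory subunit of PRC2) in 2 replicates, H3K27me3 (trimethylated lysine 27 of histone H3, the PRC2 mark) in 2 replicates, and FS2-AEBP2 in 1 sample. FS2-AEBP2 is AEBP2 with a Flag-StrepII tag, and its ChIP followed a separate protocol with blocked beads. For mass spectrometry, the study's methods describe it as the full-length protein made from a pCAG plasmid in E14 cells. Its ChIP methods name no line, and the label of the ChIP sample gives the 129/1 line. The antibody label of the mark names H3K27 without its methylation state. Replicates are called biological, without a statement that they were separate cultures. Input, SUZ12 and AEBP2 KO samples were not analysed here.

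PRC2 is the complex that methylates H3K27, and in ESCs it sits mainly on CpG islands of genes for developmental regulators that are silent until differentiation. The ParaHox genes are the evolutionary sisters of the Hox genes. In the mouse, Gsx1, Pdx1 and Cdx2 form the intact ParaHox cluster, while Gsx2, Cdx1 and Cdx4 lie elsewhere. Evx1 and Evx2 flank the 5′ ends of HoxA and HoxD, and Mnx1 stands alone.

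The lists held from 2877 peaks (AEBP2 replicate 1) to 14112 (H3K27me3 replicate 1), and AEBP2 replicate 2, with 6779 peaks, was more than 2 times as long as AEBP2 replicate 1. They hold no read counts, so the depth is unknown, and a missing peak shows only that no signal passed the authors' threshold. Of 10 genes active in mESCs or in most cells, Pou5f1, Nanog, Sox2, Zfp42 and Esrrb had no promoter peak in any list. Eef2 and Gapdh had peaks of AEBP2 replicate 2 and FS2-AEBP2, Rpl13 of AEBP2 replicate 2 and Actb of all 3 AEBP2-type lists, none of them with H3K27me3. Klf4 had an FS2-AEBP2 peak and a peak of H3K27me3 replicate 1. AEBP2 replicate 1 was called at 1 of the 10, and AEBP2 replicate 2 and FS2-AEBP2 at 4 each. Over all genes the shares were 9.08%, 22.3% and 6.53%. H3K27me3 was called at 17.0% and 17.7% of all promoters, so its absence at most of these genes does not identify the cell type. Peaks also do not measure expression. With at most 2 lists a target, no test between samples was possible, and none was made across genes.

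The 250 bases upstream of the start are given for 5 of the genes, on the strand of the gene, with each CG dinucleotide in capitals, because most PRC2 targets in ESCs are CpG islands. Gsx1 (chr5:148000022-148000271, plus strand, mm9), Cdx2 (chr5:148118847-148119096, minus strand) and Mnx1 (chr5:29805060-29805309, minus strand) had AEBP2 in every list. At Pdx1 (chr5:148081285-148081534, plus strand) and Cdx4 (chrX:100516487-100516736, plus strand) these bases lay outside every AEBP2-type peak, and Cdx4 had the weakest AEBP2 record of the family.
Gsx1: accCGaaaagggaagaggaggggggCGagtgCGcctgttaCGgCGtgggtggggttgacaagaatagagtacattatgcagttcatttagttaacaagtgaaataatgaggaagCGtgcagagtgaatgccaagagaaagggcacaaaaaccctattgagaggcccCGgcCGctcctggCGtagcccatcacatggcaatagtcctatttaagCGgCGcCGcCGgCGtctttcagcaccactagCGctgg
Cdx2: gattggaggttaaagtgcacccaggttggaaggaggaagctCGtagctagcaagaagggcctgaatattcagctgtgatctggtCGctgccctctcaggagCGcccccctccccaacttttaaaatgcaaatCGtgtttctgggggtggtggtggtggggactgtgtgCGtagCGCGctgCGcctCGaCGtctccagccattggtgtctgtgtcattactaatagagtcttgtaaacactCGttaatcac
Mnx1: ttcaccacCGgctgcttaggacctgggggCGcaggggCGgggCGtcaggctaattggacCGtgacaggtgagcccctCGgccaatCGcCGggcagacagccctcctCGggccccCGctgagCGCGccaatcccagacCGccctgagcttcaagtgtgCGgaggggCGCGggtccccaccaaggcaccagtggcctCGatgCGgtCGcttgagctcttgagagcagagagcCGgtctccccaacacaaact
Pdx1: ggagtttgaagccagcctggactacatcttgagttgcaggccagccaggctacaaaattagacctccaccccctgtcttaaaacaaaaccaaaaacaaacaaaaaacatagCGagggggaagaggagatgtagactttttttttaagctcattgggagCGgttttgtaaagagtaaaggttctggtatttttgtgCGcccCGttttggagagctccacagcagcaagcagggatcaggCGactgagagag
Cdx4: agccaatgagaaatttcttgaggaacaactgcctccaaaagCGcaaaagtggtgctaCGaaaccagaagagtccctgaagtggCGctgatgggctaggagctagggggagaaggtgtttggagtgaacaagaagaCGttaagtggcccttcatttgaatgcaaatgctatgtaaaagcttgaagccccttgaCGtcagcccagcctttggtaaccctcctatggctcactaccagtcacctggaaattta
These stretches held 15, 11, 20, 5 and 5 CG dinucleotides in that order, against a median of 8 (quartiles 3 and 18) over all protein-coding genes, 92.5% of which have at least 1 CG there. Pdx1 and Cdx4 thus lay under the median and the other 3 above it. Of the genes not printed, Gsx2 (7), Evx2 (9) and Evx1 (10) also had AEBP2 in every list, with Gsx2 under the median. The stretch of Cdx1 was not extracted, so Cdx4 was the only gene in this comparison without AEBP2 in every list.

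Every gene of the family carried H3K27me3 at its promoter, taken as 1 kb on either side of the gene start, in both replicates. Over all protein-coding genes 17.0% had such a peak in H3K27me3 replicate 1 and 17.7% in replicate 2. A promoter peak of AEBP2 replicate 1 was called at 7 of the 9 genes (9.08% of all genes), of AEBP2 replicate 2 at all 9 (22.3%) and of FS2-AEBP2 at 7 (6.53%). The same 7 genes, Gsx1, Pdx1, Cdx2, Gsx2, Mnx1, Evx1 and Evx2, had a promoter peak in all 5 lists, which 4.57% of all genes had. Cdx1 and Cdx4 were the exceptions in AEBP2 replicate 1 and FS2-AEBP2. Over the gene body, from the annotated start to the end, which shares its first 1 kb with the promoter window, the counts were 7, 9 and 7 for the AEBP2-type lists and 9 for each H3K27me3 replicate, where 10.3%, 24.9%, 7.69%, 20.8% and 20.2% of all genes had a peak in AEBP2 replicate 1, AEBP2 replicate 2, FS2-AEBP2 and H3K27me3 replicates 1 and 2.

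Since all 9 genes were marked, the closer background is the 3349 genes with H3K27me3 at the promoter in both replicates. Of these, 40.9% had AEBP2 replicate 1, 68.3% AEBP2 replicate 2 and 38.2% FS2-AEBP2. The length of the mark divided the family as AEBP2 did. Of the family, 7 genes belonged to the 235 genes whose H3K27me3 peaks measured at least 14 kb in both replicates, and in that group AEBP2 replicate 1 was called at 93.2%, AEBP2 replicate 2 at 97.4% and FS2-AEBP2 at 93.6%. Cdx1 and Cdx4 belonged to the 2090 genes with H3K27me3 peaks of at most 7 kb in both replicates, where the shares were 23.1%, 56.7% and 21.3%. These limits were set after the lengths of the family were seen. The shares count gene records, some of which lie under the same H3K27me3 peak, as Evx2 does with Hoxd13.

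**Figure D1:**
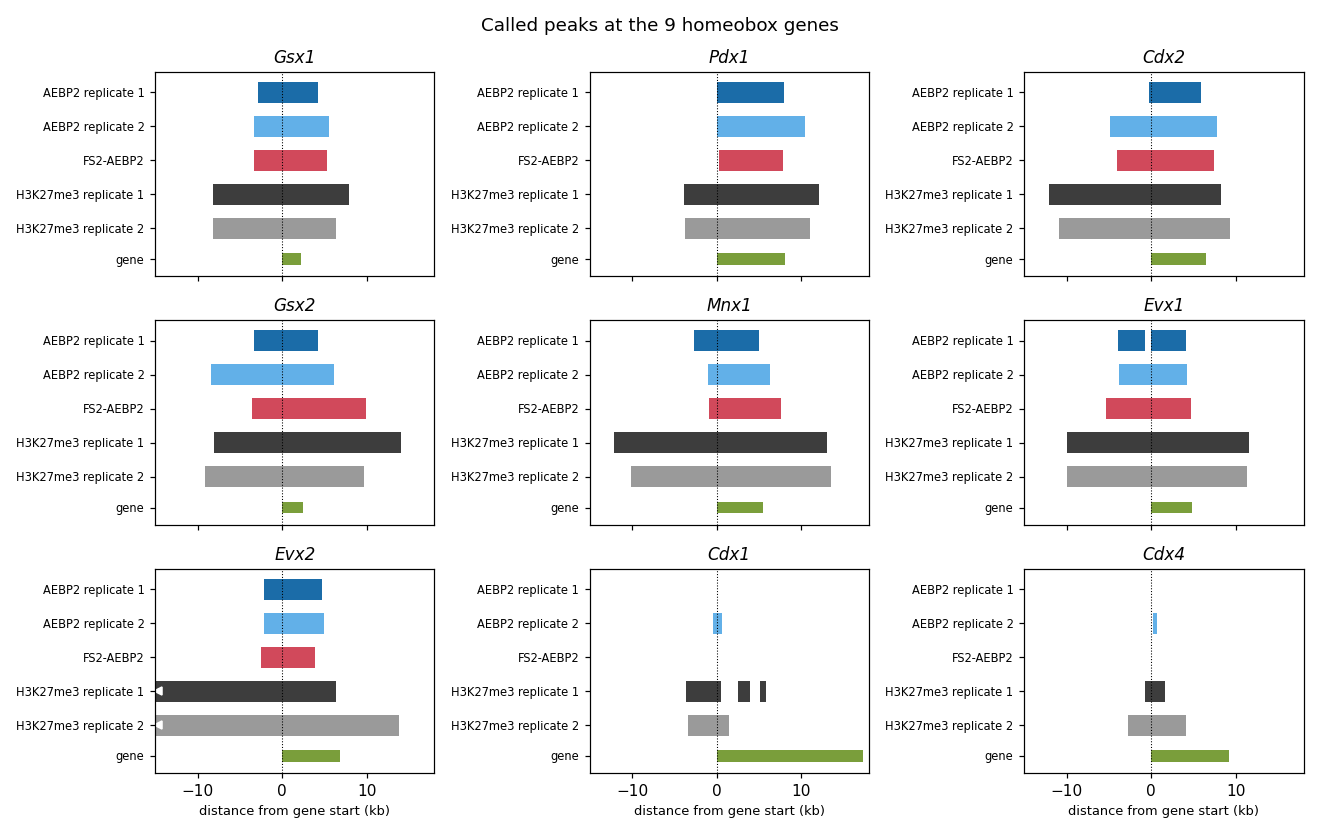
Peaks called at the promoter or gene body of each of the 9 genes, by list, against the distance from the gene start in kb along the direction of transcription (dotted line at 0, green bar for the gene). White arrowheads mark H3K27me3 peaks of Evx2 that run beyond the axis; Cdx1 and Cdx4 have no bar in AEBP2 replicate 1 or FS2-AEBP2.

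The peaks at the 7 genes were long. Their median length over the members with a peak was 7170 bp in AEBP2 replicate 1, 8017 bp in AEBP2 replicate 2 (Cdx1 and Cdx4 included) and 8671 bp for FS2-AEBP2, against 1242, 871 and 1376.5 bp over all genes with a promoter peak of the same list, and 2019, 1909 and 1628 bp over those also marked in both replicates. For H3K27me3 the medians over all 9 genes were 20312 bp in replicate 1 and 18829 bp in replicate 2. They were 4839 and 3943.5 bp over all genes with a promoter peak, and 5263 and 4620 bp over those marked in both replicates. In AEBP2 replicate 1 and FS2-AEBP2 all 7 genes lay above the median of all genes, as did 8 of 9 in AEBP2 replicate 2, 7 of 9 in H3K27me3 replicate 1 and 9 of 9 in H3K27me3 replicate 2.

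**Figure D2:**
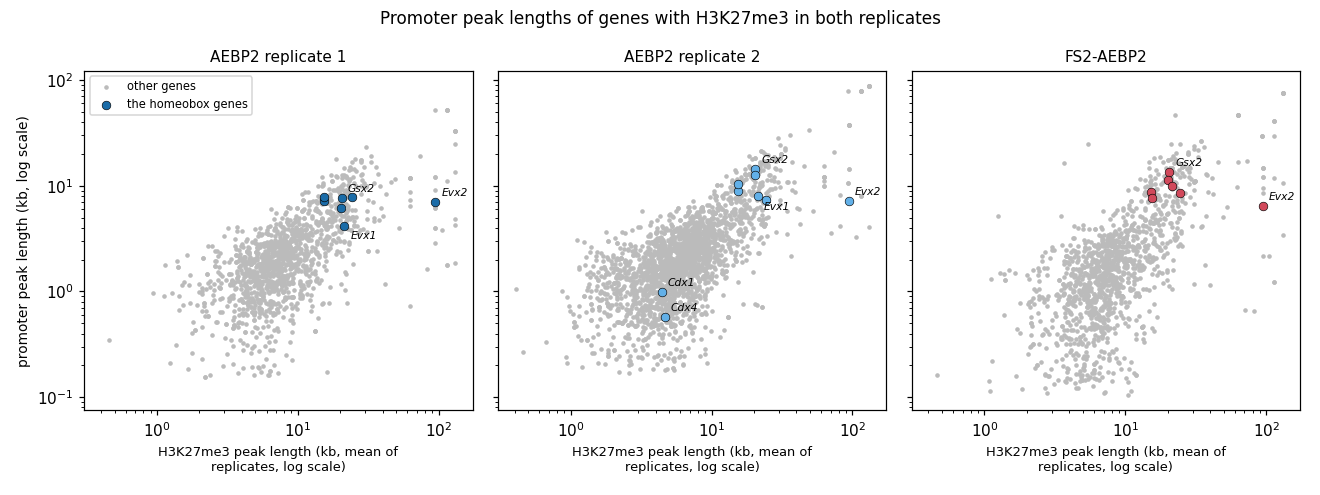
Length of the promoter peak in each AEBP2-type list (vertical, kb, log scale) against the mean length of the H3K27me3 promoter peaks of both replicates (horizontal, kb, log scale), for genes with H3K27me3 in both replicates; grey points are other genes and coloured points the homeobox genes. Cdx1 and Cdx4 appear only in the panel of AEBP2 replicate 2, at 990 and 577 bp, while the other 7 genes lie among the long peaks.

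The scores of the peak caller, whose scale is not stated, were used as the percent of peaks in the same list with a lower score. By this rank the 7 genes stood from 80.0% to 94.9% in AEBP2 replicate 1 and from 86.3% to 98.6% for FS2-AEBP2. In AEBP2 replicate 2 they stood from 76.7% (Evx1) to 98.2% (Cdx2). All 9 genes ranked from 79.4% to 99.96% in H3K27me3 replicate 1 and from 64.2% to 99.8% in replicate 2, with Pdx1 at the top of both. Over all genes with a promoter peak the median ranks were 47.2%, 51.9%, 57.5%, 79.4% and 71.6%, in the order AEBP2 replicates 1 and 2, FS2-AEBP2, H3K27me3 replicates 1 and 2. Over those also marked in both replicates they were 54.7%, 63.1%, 61.4%, 83.5% and 74.6%. Evx2 equalled this marked median in H3K27me3 replicate 1, where Cdx4 (79.4%) lay below it. In H3K27me3 replicate 2, Cdx4 (71.6%) and Cdx1 (64.2%) lay below it.

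**Figure D3:**
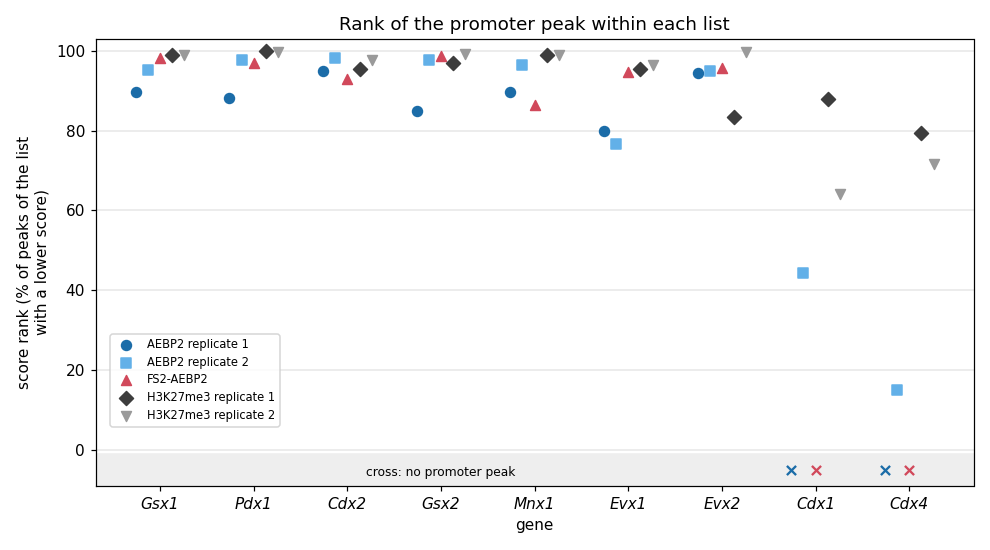
Score rank of the promoter peak of each gene (vertical, percent of the peaks of that list with a lower score), with a symbol for each of the 5 lists and crosses for the absence of a promoter peak. The 7 genes with a peak in every list stand at 76.7% or above, whereas the AEBP2 replicate 2 peaks of Cdx1 and Cdx4 stand at 44.3% and 15.1%.

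Gsx1 (ENSMUSG00000053129, chromosome 5, 148000272 to 148002523, plus strand), a homeobox gene of the developing hypothalamus and ventral forebrain, was covered over its whole length by a peak of every list. The AEBP2 peak measured 7170 bp in replicate 1 and 8953 bp in replicate 2, the FS2-AEBP2 peak 8671 bp and the H3K27me3 peaks 16093 and 14470 bp. The AEBP2 replicates shared 0.801 of the bases covered by either, and the FS2-AEBP2 and AEBP2 replicate 2 peaks 0.969. The AEBP2-type peaks began 2887, 3386 and 3328 bp before the start, so their upstream edges fell within 500 bp of each other. Each of them lay inside the H3K27me3 peaks of both replicates.

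Pdx1 (ENSMUSG00000029644, chromosome 5, 148081535 to 148089584, plus strand), the factor required to form the pancreas, had its AEBP2 on the gene and not upstream of it. The peaks began 99 bp after the start in AEBP2 replicate 1, 81 bp after it in replicate 2 and at position 148081778 for FS2-AEBP2, and covered 97.4%, 99.0% and 94.4% of the gene. H3K27me3 began 3860 and 3693 bp before the start and covered the whole gene. None of the 3 AEBP2-type peaks held the annotated start base, whereas both H3K27me3 peaks did. The CpG-island-like region of this promoter, from 148081691 to 148082330 (640 bp), also begins after the start. The H3K27me3 peaks of Pdx1 ranked at 99.96% in replicate 1 and 99.8% in replicate 2. The transcript 2210019I11Rik, annotated on the opposite strand from 148040172 to 148083097, overlaps the start of Pdx1, and its start also lies in these peaks.

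Cdx2 (ENSMUSG00000029646, chromosome 5, 148112381 to 148118846, minus strand) specifies trophectoderm in the blastocyst and later the intestine. Its AEBP2 peak measured 6151 bp in replicate 1, 12697 bp in replicate 2 and 11353 bp for FS2-AEBP2. In replicate 1 the peak ended 271 bp upstream of the start and a second peak of 2958 bp followed further upstream, whereas in replicate 2 and FS2-AEBP2 the peak itself reached 4878 and 3981 bp upstream. The AEBP2 replicates shared 0.484 of the bases covered by either, the lowest value of the 7 genes. The H3K27me3 peaks, of 20312 and 20169 bp, were close to each other in length and shared 0.893.

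Across the ParaHox cluster the mark and AEBP2 formed separate blocks over each gene. From the Gsx1 start to the Cdx2 start, 118575 bp, AEBP2 covered 15.2% in replicate 1, 21.7% in replicate 2 and 18.3% for FS2-AEBP2, and H3K27me3 36.8% and 32.4%. Between the promoter peaks of Gsx1 and Pdx1 the gap measured from 69506 bp (H3K27me3 replicate 1) to 77079 bp (AEBP2 replicate 1), and between those of Pdx1 and Cdx2 from 16983 to 23492 bp. No peak of any list joined neighbouring genes of the cluster. Inside the first gap both H3K27me3 replicates had a peak beginning 29783 and 30020 bp after the Gsx1 start, from 148030055 to 148038891 (8837 bp) in replicate 1 and from 148030292 to 148038417 (8126 bp) in replicate 2. H3K27me3 replicate 1 alone had 2 smaller peaks in the same gap, of 1318 and 1350 bp. No gene record overlapped the long peak, and of the AEBP2-type lists only AEBP2 replicate 2 had peaks there, of 369 and 1662 bp. Upstream of Cdx2, each AEBP2-type list had a further peak, which began 124152 to 124185 bp from the Gsx1 start and overlapped the 3′ part of Prhoxnb. The promoter of Prhoxnb had no peak in any list.

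**Figure D4:**
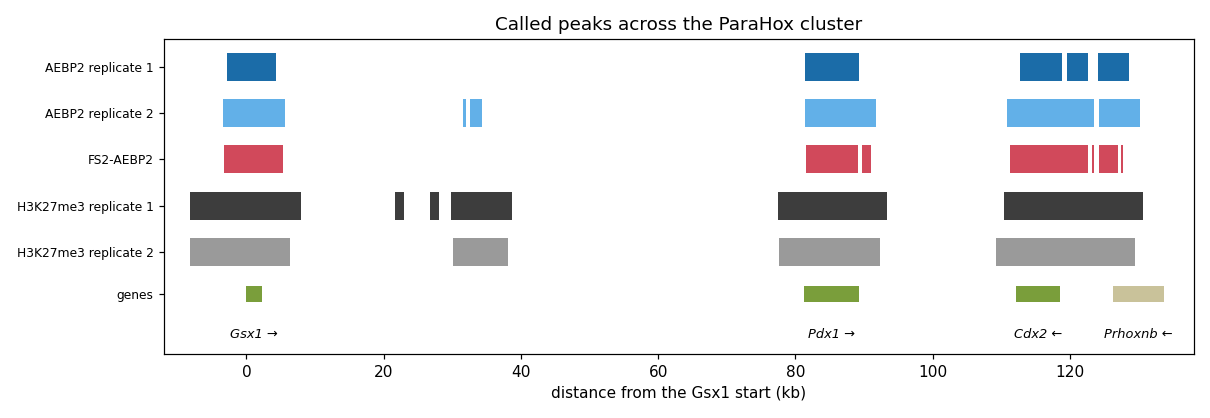
Peaks of each list across the ParaHox cluster, against the distance from the Gsx1 start in kb, with genes as bars below and arrows for their strand. Peaks of all 5 lists lie over Gsx1, Pdx1 and Cdx2 with wide gaps between them, and the H3K27me3 peak near 30 kb has AEBP2 peaks in replicate 2 only.

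Gsx2 (ENSMUSG00000035946, chromosome 5, 75471489 to 75473918, plus strand), which patterns the lateral ganglionic eminence, had the longest AEBP2 replicate 2 and FS2-AEBP2 peaks of the family. They measured 14474 and 13573 bp, against 7599 bp in AEBP2 replicate 1. The longer promoter peaks extended in opposite directions, to 8350 bp upstream in AEBP2 replicate 2 and to 9956 bp downstream for FS2-AEBP2. They shared 0.532 of the bases covered by either. Both lists had further peaks in the domain, so this describes the promoter peaks alone. The H3K27me3 replicate 1 peak held 3 peaks of AEBP2 replicate 2 and 4 of FS2-AEBP2, which covered 77.9% and 79.6% of it. The H3K27me3 peaks measured 22153 and 18829 bp. The nearest gene downstream, Pdgfra, 74397 bp away, also had a promoter peak in all 5 lists, and the nearest upstream, Chic2, in none.

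Mnx1 (ENSMUSG00000001566, chromosome 5, 29799578 to 29805059, minus strand), a gene of motor neurons and the early pancreas, had the promoter richest in CpG of the 9, with 148 CG dinucleotides in 2 kb and a GC content of 62.9%. Its AEBP2 peaks measured 7785 and 7290 bp and its FS2-AEBP2 peak 8452 bp. The H3K27me3 peaks, of 25222 and 23565 bp, were 2.79 to 3.46 times as long and ran 12126 and 10063 bp upstream of the start, where the AEBP2-type promoter peaks reached 2734, 981 and 884 bp. Counting every AEBP2-type peak in the domain, and not the promoter peak alone, AEBP2 replicate 1 covered 41.4% of the H3K27me3 replicate 2 peak, AEBP2 replicate 2 48.6% and FS2-AEBP2 41.7%. The flanking gene Nom1 had no promoter peak. Ube3c, on the other side, had AEBP2 in both replicates without H3K27me3.

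The Evx genes, which act in spinal interneurons and, for Evx2, in digit development, differed in how they stood to the neighbouring Hox cluster. Evx1 (ENSMUSG00000005503, chromosome 6, 52263492 to 52268372, plus strand) lies 52618 bp from the Hoxa13 start, and in every list its peak was apart from that of Hoxa13, by 25965 bp (H3K27me3 replicate 2) to 46652 bp (AEBP2 replicate 1). Its H3K27me3 peaks, of 21431 and 21247 bp, shared 0.986 of the bases covered by either. Its AEBP2 signal was called in 2 pieces in replicate 1, of 3169 and 4186 bp, and as 1 peak across both in replicate 2 (8017 bp) and FS2-AEBP2 (10009 bp). The replicate 1 gap lay upstream of the start, from 734 to 29 bp before it, within the antisense transcript 5730457N03Rik. Among the 7 genes Evx1 had the lowest AEBP2 rank in both replicates, 80.0% and 76.7%, but not for FS2-AEBP2 (94.6%).

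Evx2 (ENSMUSG00000001815, chromosome 2, 74491049 to 74497918, minus strand) lies 8449 bp from the Hoxd13 start and shared its H3K27me3 peak with HoxD in both replicates. That peak measured 117362 bp in replicate 1, where it held the starts of 9 Hoxd genes, and 71900 bp in replicate 2, where it held 7, and the replicates shared 0.517 of the bases covered by either. The AEBP2-type promoter peaks of Evx2 were separate from those of Hoxd13. They measured 6940, 7177 and 6402 bp in AEBP2 replicate 1, replicate 2 and FS2-AEBP2 and left gaps of 3543, 1265 and 2235 bp. The AEBP2 replicates shared 0.967 of the bases covered by either at Evx2, the highest value of the family. The shared H3K27me3 peak of replicate 1 held 14 peaks of AEBP2 replicate 1, 7 of AEBP2 replicate 2 and 11 of FS2-AEBP2, which covered 65.6%, 81.1% and 70.5% of it. The mark was thus called as a single stretch where AEBP2 was called in many.

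Cdx1 and Cdx4, which with Cdx2 drive posterior Hox expression in the elongating embryo, had shorter marks. Cdx1 (ENSMUSG00000024619, chromosome 18, 61178516 to 61195853, minus strand) had H3K27me3 promoter peaks of 4050 and 4800 bp, which lay mostly upstream of the start, from 3582 bp before it to 467 bp after it in replicate 1. Its only AEBP2-type peak, in AEBP2 replicate 2, measured 990 bp, spanned the start from 410 bp before to 579 bp after it, and ranked at 44.3%. Cdx4 (ENSMUSG00000031326, chromosome X, 100516737 to 100525931, plus strand) had H3K27me3 peaks of 2391 and 6918 bp, whose shared fraction of 0.346 was the lowest of the family. Cdx4 is the only gene of the family on the X chromosome, of which the labelled XY line holds 1 copy. Whether copy number affected its calls was not tested. Its AEBP2 replicate 2 peak measured 577 bp, began 168 bp after the start and ranked at 15.1%. Both AEBP2 peaks were called in 1 of 2 replicates, and AEBP2 replicate 2 is the list with the most AEBP2 peaks, so their presence was not repeated. No list had a promoter peak at either flanking gene of Cdx4 (4930519F16Rik and Chic1), nor at Slc6a7 beside Cdx1. Pdgfrb, on the other side of Cdx1, had H3K27me3 replicate 1 alone.

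Within these 9 genes, sequence did not divide the family in the same way. A CpG-island-like region (500 bp windows, GC 55% or more, CpG number 0.65 or more of that expected from base composition) lay at 8 of the 9 promoters. Of all 22367 promoters 12312 had such a region, and 86.0% of those marked in both H3K27me3 replicates. Cdx4 was the promoter without it, with 53 CG dinucleotides in 2 kb and an observed to expected ratio of 0.413. Cdx1, by contrast, had a region of 1430 bp around its start and 129 CG dinucleotides in 2 kb, more than Pdx1 (70), Evx1 (81), Evx2 (81), Gsx2 (100) or Cdx2 (118), all of which had AEBP2 in every list. The median over marked promoters was 94. Over the 1023 marked promoters with all 3 AEBP2-type lists it was 117, and 96.8% of them had a CpG-island-like region. Over all genes, then, promoters with AEBP2 were richer in CpG than marked promoters as a whole. At the 7 genes every AEBP2-type peak also extended outside such regions. Such regions made up a median of 40.4% of the AEBP2 replicate 1 peak over the 7 genes, 32.8% in replicate 2 over the 9 and 28.3% for FS2-AEBP2 over the 7, against 91.0%, 100% and 75.6% over all genes with a promoter peak, whose peaks were shorter.

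Most AEBP2-type promoter peaks lay wholly inside the H3K27me3 peak. In AEBP2 replicate 1, all 7 peaks were fully inside the H3K27me3 promoter peak of each replicate, which held for 87.5% (H3K27me3 replicate 1) and 84.3% (replicate 2) of all genes with both peaks. For AEBP2 replicate 2 it held for 7 and 9 of the 9 genes (78.1% and 68.9% of all), and for FS2-AEBP2 for 7 and 6 of the 7 (92.0% and 88.3%). The exceptions were short overhangs, of 112 bp at Cdx1, 238 bp at Gsx2 in AEBP2 replicate 2 and 283 bp at Gsx2 for FS2-AEBP2. The AEBP2 promoter peak took a median of 30.9% and 33.0% of the length of the mark in AEBP2 replicate 1, 37.4% and 37.7% in replicate 2, and 47.6% and 51.7% for FS2-AEBP2. Over all genes with both peaks these medians were 25.7%, 29.5%, 32.2%, 36.6%, 21.3% and 22.6% in the same order. All peaks of a list together covered from 34.6% (Evx1) to 73.2% (Evx2) of the H3K27me3 replicate 2 peak in AEBP2 replicate 1 over the 7 genes, from 43.6% (Evx1) to 89.1% (Cdx2) in AEBP2 replicate 2 and from 41.7% (Mnx1) to 91.5% (Gsx2) for FS2-AEBP2. The medians over all genes with both peaks were 31.7%, 32.6% and 27.6%. The short peaks of AEBP2 replicate 2 covered 20.6% at Cdx1 and 8.34% at Cdx4.

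Replicate peaks of the mark shared from 0.767 to 0.986 of their bases at 7 of the 9 genes, and less at Evx2 (0.517) and Cdx4 (0.346). The H3K27me3 replicates shared a median of 0.893 of the bases covered by either over the 9 genes (0.677 over all genes with both peaks). For the AEBP2 replicates the median over the 7 genes was 0.667 against 0.638 over all genes, as a fraction of peaks that were longer at these genes than elsewhere. FS2-AEBP2 shared 0.576 with AEBP2 replicate 1 (0.583 over all genes) and 0.805 with AEBP2 replicate 2 (0.502).

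Genes that work with this family in the same tissues were counted in the same way, in gene lists written with earlier results of these data known. Of the 39 Hox genes, 37 had a promoter peak in all 5 lists, beside 7 of the 9 genes here and 4.57% of all genes. Genes of a Hox cluster often lie under the same peak, so these counts are of genes and not of separate peaks. For instance, the same H3K27me3 replicate 1 peak of 135110 bp lay at Hoxb1 to Hoxb9. Within Hox the highest mean rank over the lists, 98.8%, was that of Hoxb5, Hoxb6, Hoxb7 and Hoxb8, which lie under the same peaks. Of 10 genes of the posterior axis and tail bud, 6 had all 5 lists, led by Wnt3a (a Wnt ligand of the tail bud, mean rank 91.7%) and Nkx1-2 (91.6%), while Tbx6, Msgn1 and Fgf4 had no promoter peak. Of 7 trophoblast genes matched by symbol, 4 did, led by Hand1 (87.1%) and Eomes (84.2%), and Elf5 had none. Tfap2c, named Tcfap2c in the annotation, was not among the 7, and its mean rank is not given here. Its AEBP2-type peaks measured 6037, 6185 and 5144 bp, and it too had all 5 lists. Of 15 pancreatic genes, 11 did, led by the transcription factors Foxa2 (97.7%) and Nkx2-2 (95.3%), while the insulin genes Ins1 and Ins2 had none. Motor neuron genes had all 5 lists in 5 of 8, led by Olig2 (96.4%) and Lhx4 (96.3%). Genes of the ventral forebrain had them in 7 of 7, led by Dlx2 (97.2%) and Dlx1 (90.3%). Dlx1 and Dlx2 shared their AEBP2 replicate 2 and H3K27me3 peaks, and Dlx5 and Dlx6 their FS2-AEBP2 and H3K27me3 peaks. The gene groups overlap, with Pax6 among both pancreatic and forebrain genes, and Isl1 and Nkx6-1 among both pancreatic and motor neuron genes. Of the 6 intestinal genes 0 had all 5 lists, which is near the share over all genes. Cdh17, Vil1, Sis and Krt20 had no promoter peak, and the highest mean ranks were those of Lgr5 (43.0%) and Muc2 (4.60%).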

How the data were processed

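The files were 5 lists of peaks, 1 per sample and not pooled. According to the submitters' processing notes the tools were Bowtie, SAMtools, Picard and MACS2 2.0.10.2, and the build mm9; settings, thresholds and control libraries are not given in the sources used here. Chromosome lengths of the reference used here are those of mm9 (NCBIM37). The authors deposited for each peak its position, a whole-number score of unstated scale (ranked within a list only), and its other values, the number and lengths of blocks, taken from the layout of the peak caller's output to be its stronger stretches. Lists were matched to samples by the sample records; for H3K27me3 the replicate numbers in the deposited names look reversed against the records, so which is replicate 1 is uncertain.

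Restricting the lists to the autosomes 1 to 19 and the sex chromosomes removed 2 peaks of AEBP2 replicate 1 and 13 of H3K27me3 replicate 2. A gene had a promoter peak where a peak overlapped its start plus or minus 1 kb by at least 1 bp; the highest-scoring such peak gave length and rank. The genes and lists were chosen with earlier results of these data known. Named beside the 9 genes were their nearest neighbours, list genes without H3K27me3 in either replicate, the 2 of each list with the highest mean rank (0 where no peak), and the 5 genes with the most similar ranks. Tfap2c, which the annotation names Tcfap2c, and Slc18a3 were not matched by symbol. Sequences came from the NCBIM37 genome at GENCODE vM1 starts. Overlap functions were tested on simulated data. Python 3.11.15, numpy 2.4.6 and matplotlib 3.10.9 were used.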

Additional observations from a re-analysis of the deposited data

How the results depend on the processing

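Of 110 values under alternative settings, 102 stayed within 1.5 times the reported count or within the spread of the replicates (for FS2-AEBP2, which has no replicate, that of AEBP2). The limit for counts was wide, since a fall from 9 to 6 genes also passed it, so the 102 says little about the counts. Joining peaks within 1 kb moved the median length to 7841 bp in AEBP2 replicate 1, 8953 bp in AEBP2 replicate 2, 10365 bp for FS2-AEBP2 and 20169 bp in H3K27me3 replicate 2. Leaving out Cdx1 and Cdx4, an alternative chosen after seeing the data, gave 8953 bp in AEBP2 replicate 2 and 21431 and 20169 bp for H3K27me3. Ranking among promoter peaks only lowered the median rank of H3K27me3 replicate 1 from 95.5% to 86.2%. Requiring the start base itself inside a peak removed Pdx1 from all 3 AEBP2-type lists and Cdx4 from AEBP2 replicate 2, and requiring 50% of the 2 kb window removed Pdx1 from all 3, and Cdx1 and Cdx4 from AEBP2 replicate 2. Keeping scores at or above the list median removed Cdx4 from AEBP2 replicate 2. Over the gene body, leaving out the first 1 kb lowered the count for AEBP2 replicate 2 from 9 to 7, and requiring 50% of the body lowered it from 9 to 7 for AEBP2 replicate 2 and both H3K27me3 replicates. Counting AEBP2 in 1 replicate alone gave 7 or 9 genes. No paired analysis was possible because no result comes from a test. The unknown depth limits every statement on a missing peak.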

Other observations

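The genes outside the family whose 5 score ranks were most like the family's medians were Hand2, Otx1, Foxe3, Grid1 and Neurod2, with mean absolute differences of 0.978, 1.14, 1.26, 1.36 and 1.37 percentage points over the 5 lists (a missing peak counted as rank 0). The lists come from 3 targets and are not independent.

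Each deposited peak is divided into blocks. At the homeobox genes with a promoter peak, blocks filled a median of 54.1% of the peak in AEBP2 replicate 1, 58.1% in replicate 2 and 72.0% for FS2-AEBP2, and 70.8% and 75.3% in the H3K27me3 replicates, against 46.3%, 53.3%, 49.7%, 45.2% and 50.4% over all genes with a promoter peak. Among the H3K27me3 peaks the fill was lowest at Cdx4, with 36.2% in replicate 1 and 26.3% in replicate 2, and it was highest in replicate 2 at Evx2 (88.7%) and Cdx2 (88.3%). In AEBP2 replicate 1, Pdx1 (31.8%) and Gsx2 (32.8%) had the lowest fill, although their FS2-AEBP2 peaks were filled to 80.3% and 71.8%.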
